A study of Bubalus bubalis with 6 samples.

Results

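The BCL2 family genes were examined in RNA-seq data from muscle stem cells (MuSCs) of water buffalo, in which proliferating cultures were compared with differentiating ones. The family was taken as 10 gene symbols, and 7 of them were listed by symbol among the 24616 genes of the deposited gene table. These were the survival genes BCL2 and BCL2L1, the effector genes BAX and BAK1, and the BH3-only genes BID, BAD and BCL2L11. MCL1, BBC3 and PMAIP1 were not listed by symbol and were not analysed here. All 7 genes passed the minimum of 10 counts over the 6 samples, below which genes were not tested.

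The cells were primary MuSCs from the longissimus muscle of fetal buffalo, isolated with type I collagenase and trypsin. GM samples (n = 3) were proliferating cells in growth medium, high-glucose DMEM with fetal bovine serum. DM samples (n = 3) were cells moved to differentiation medium, DMEM with a lower percentage of serum, from horse, once nearly confluent. No gene was altered in either group, and the labels give neither the hour at which DM cells were collected nor whether the replicates were separate cultures or animals. The p-values therefore measure the spread between these samples, which may be technical.

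BCL2 family proteins decide whether the outer membrane of the mitochondrion stays closed. Survival proteins such as BCL2 and BCL-xL, the main product of BCL2L1, hold the effectors BAX and BAK1 in check, while BH3-only proteins sense damage or loss of growth signals and either block the survival proteins or activate the effectors. Once the effectors open pores, cytochrome c leaves the mitochondrion and caspases are activated. In skeletal muscle, part of the myoblasts die when growth factors are withdrawn, and caspase activity below the level that kills is also known to take part in myoblast differentiation.

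The depth behind each value was 35615864 to 40305237 counts on genes per sample. Across genes, GM samples correlated with each other at Pearson's r = 0.992, DM samples at 0.982 to 0.991, and samples of different groups at 0.926 to 0.935. Over all tested genes, 31.6% rose and 31.4% fell in DM samples at an adjusted p under 0.05 in edgeR. These shares stand beside the counts of marker genes that follow. In marker lists, all 5 proliferation genes fell, with a summed level of 1284 to 1344 CPM in GM and of 286 to 361 CPM in DM samples. The myogenic list, of which 3 of 7 tested genes rose and 3 fell, summed to 2785 to 3191 CPM in GM and 3769 to 5417 CPM in DM samples. MYH3 carried the rise of this sum, with means of 346 CPM in GM and 2064 CPM in DM samples. DES, the largest part of the GM sum, was not called (2274 and 2051 CPM). All 6 fibroblast genes rose, with sums of 24827 to 25051 CPM in GM and 77006 to 96951 CPM in DM samples, so both groups carried fibroblast-type transcripts beside myogenic ones. Smooth muscle and pericyte markers summed to 121 to 130 and 136 to 228 CPM, adipocyte markers to 2.22 to 3.51 and 6.80 to 8.16 CPM, immune markers to 5.96 to 7.60 and 7.03 to 13.3 CPM, and endothelial markers to 3.88 to 4.59 and 5.15 to 6.05 CPM. The genes of the last 2 lists did not share a direction, and their median log2 fold changes were -0.64 and -0.74. CD14 (log2 fold change 2.75) and TEK (1.51) were called higher in DM samples, and CD68 (-1.04), VWF (-1.41) and CDH5 (-2.24) lower. CDH5 had 32, 28 and 6 counts in GM and 1, 8 and 3 in DM samples, and its groups overlapped. VWF had 9 to 54 counts per sample. The immune gene LYZ was at 0 counts in every sample, and PTPRC had at most 2 counts in a sample. CIDEC made up most of the adipocyte sum (2.67 CPM in GM and 6.64 CPM in DM samples). ADIPOQ and PLIN1 were not called, FABP4 was called higher on at most 16 counts in a sample, and LEP was not tested. Of the smooth muscle and pericyte genes, MYH11 and KCNJ8 were called higher in DM samples, KCNJ8 from a mean of 0.277 to 13.8 CPM. CSPG4 and NOTCH3, the largest parts of that sum, were not called. CSPG4 was above the GM samples only in DM replicate 3 (147 CPM, against 58.5 and 53.6 CPM in DM replicates 1 and 2). RGS5 was not called and had at most 4 counts in a sample. The part of these other cell types in the changes given next was not tested.

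Of the 7 family genes, BCL2L1 rose in DM samples, and BAK1, BID and BCL2L11 fell, at an adjusted p under 0.05 in edgeR's quasi-likelihood test with Benjamini-Hochberg adjustment over all 15576 genes tested. These 4 of 7 (57.1%) stand beside 63% of all tested genes. In the separate directions, 31.6% of tested genes were called higher in DM samples and 31.4% lower, so changes of either sign were common in this comparison. None of the 7 family genes also passed an absolute log2 fold change of 1, the size the study asked for, which 25.3% of tested genes did. At an unadjusted p under 0.05 the same 4 genes passed, and DESeq2 called 4 by adjusted p and 0 by both criteria. The median log2 fold change was -0.13 over the 7 genes and 0.03 over all tested genes. In bulk RNA, fewer cells of a type and less RNA per cell cannot be told apart, and this holds for each change below. Levels are given as CPM (counts scaled to a common library size, after TMM normalization), and log2 fold changes are DM over GM.

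**Figure D1:**
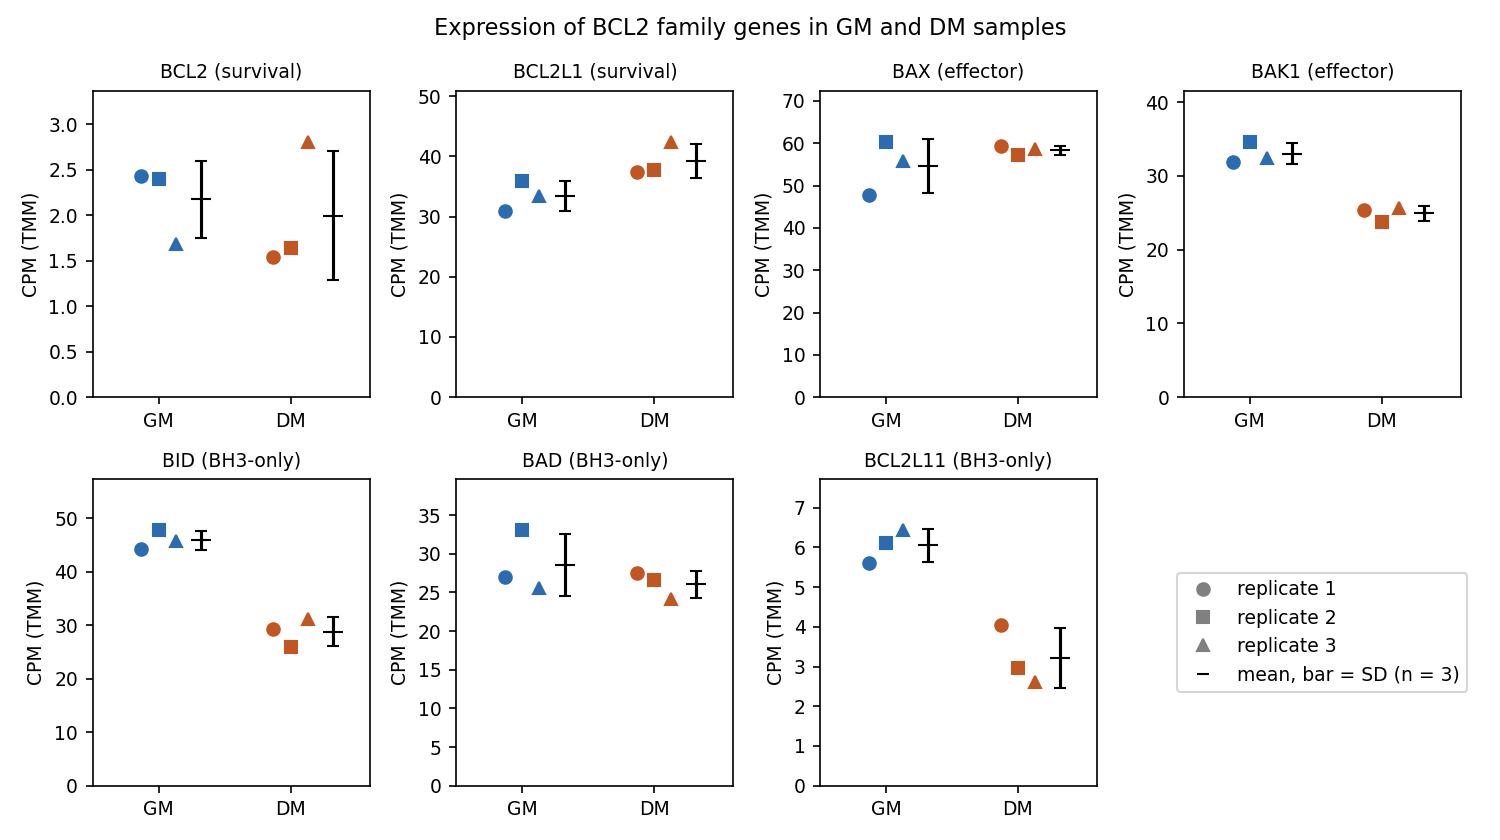
Expression of the 7 BCL2 family genes, in CPM on TMM-scaled library sizes, in each GM (blue) and DM (orange) sample; marker shapes are replicates 1 to 3 and black bars are the mean ± SD (n = 3 per group). GM and DM samples are apart for BCL2L1, BAK1, BID and BCL2L11 and overlap for BCL2, BAX and BAD.

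BCL2, the founding survival gene of the family, was the lowest of them per length in 5 of 6 samples. It reached 2.44, 2.40 and 1.69 CPM in GM samples 1, 2 and 3 and 1.54, 1.64 and 2.81 CPM in DM samples 1, 2 and 3, from 52 to 104 counts per sample. The highest and the lowest of the 6 values were both DM samples, so the groups overlapped completely. The group means were 2.18 ± 0.42 CPM in GM and 2.0 ± 0.71 CPM in DM samples (SD, n = 3 each). The log2 fold change was -0.12 with a 95% interval of -0.76 to 0.51 (edgeR, adjusted p = 0.729), which leaves room for a moderate change of either sign. It was -0.45 without DM replicate 3 (edgeR, adjusted p = 0.127) and 0.04 without DM replicate 1, so its sign rested on single libraries.

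The 95% Poisson interval of BCL2, exact and for counting error only, was 2.30 to 3.41 CPM in DM replicate 3, against 1.15 to 2.02 CPM in DM replicate 1 and 1.25 to 2.11 CPM in DM replicate 2. The SD of BCL2 over the DM samples was 35.4% of its mean. DM replicate 3 also had the highest summed myogenic markers (5417 CPM, against 3769 and 4168 CPM in DM replicates 1 and 2), which MYH3 (2708, against 1647 and 1837 CPM) and DES (2411, against 1787 and 1954 CPM) carried. It was the lowest DM sample for PAX7 (6.11, against 12.3 and 10.9 CPM), MYOD1 (39.3, against 67.2 and 75.0 CPM) and MYOG (155, against 161 and 185 CPM). Its smooth muscle and pericyte markers had the highest sum (228, against 149 and 136 CPM), through CSPG4 (147, against 58.5 and 53.6 CPM), while its MYH11 (4.70, against 6.51 and 5.85 CPM) and KCNJ8 (9.30, against 18.1 and 14.0 CPM) were the lowest of the DM samples. DM replicate 3 was the highest of them for NOTCH3 (66.9, against 66.0 and 62.5 CPM). Its fibroblast markers had the lowest sum of the DM samples (77006, against 96951 and 89191 CPM). Of these genes only THY1 (589, against 623 and 568 CPM) was not lowest in it. Across genes, DM replicate 3 correlated at Pearson's r = 0.982 with each other DM sample, against 0.991 between DM replicates 1 and 2. The part of these differences in the BCL2 value was not tested.

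BCL2L1, which encodes BCL-xL, was the other listed survival gene of the family as taken here, and its RNA was measured. Its level was 30.9, 35.9 and 33.4 CPM in GM samples 1, 2 and 3 and 37.5, 37.7 and 42.5 CPM in DM samples. Every DM sample lay above every GM sample, though the gap between GM replicate 2 and DM replicate 1 was small. The means were 33.4 ± 2.51 and 39.2 ± 2.82 CPM (SD, n = 3 each), and the log2 fold change was 0.23 (SE 0.083, 95% interval 0.05 to 0.42). The adjusted p of 0.0310 in edgeR was close to the threshold. The call was lost without GM replicate 1 (log2 fold change 0.18, adjusted p = 0.123), without GM replicate 3 (0.23, adjusted p = 0.0844) and without DM replicate 3 (0.18, adjusted p = 0.0589), and when libraries were scaled by size alone (0.14, adjusted p = 0.188). The rise in BCL2L1 was thus smaller than 1.5-fold over its whole interval and depended on single libraries and on the scaling.

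BAX, an effector that forms the pores, measured 47.7, 60.4 and 55.8 CPM in GM samples 1, 2 and 3 and 59.2, 57.2 and 58.7 CPM in DM samples. The DM samples lay inside the range of the GM samples, of which GM replicate 1 was the lowest. Means were 54.6 ± 6.42 CPM in GM and 58.4 ± 1.07 CPM in DM samples, and the log2 fold change was 0.10 (95% interval -0.10 to 0.29, edgeR adjusted p = 0.360). Its sign turned when libraries were scaled by size alone (-0.0022). The SD of BAX was 11.8% of the mean over GM samples and 1.84% over DM samples.

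BAK1, the other effector, measured 31.9, 34.7 and 32.5 CPM in GM samples and 25.4, 23.8 and 25.6 CPM in DM samples. All DM samples lay below all GM samples and the replicates of each group stayed close together. The means were 33.0 ± 1.45 and 24.9 ± 0.99 CPM, 1.33-fold higher in GM samples, and the log2 fold change was -0.41 (SE 0.073, 95% interval -0.57 to -0.24, edgeR adjusted p = 0.000641). BAK1 remained lower at an adjusted p under 0.05 in all 12 alternative settings run.

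BID links death receptors to the mitochondrion, since caspase-8 cuts the protein into the fragment that activates BAX and BAK1. It fell in DM samples: 44.2, 47.8 and 45.8 CPM in GM samples 1, 2 and 3 stood against 29.4, 25.8 and 31.3 CPM in DM samples. The groups were far apart, with DM replicate 3 the highest of the DM samples. BID was 1.59-fold higher in GM samples (means 45.9 ± 1.80 and 28.8 ± 2.75 CPM), and its log2 fold change was -0.67 (SE 0.083, 95% interval -0.86 to -0.49, edgeR adjusted p = 4.09e-05). It had the smallest adjusted p of the 7 genes and stayed called in all 12 alternative settings.

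BAD, a BH3-only protein that growth factor signaling keeps inactive by phosphorylation, gave 26.9, 33.0 and 25.5 CPM in GM samples 1, 2 and 3 and 27.5, 26.6 and 24.1 CPM in DM samples. The groups overlapped, and GM replicate 2 stood above the other 5 samples. The log2 fold change was -0.13 (95% interval -0.36 to 0.10, edgeR adjusted p = 0.297), with means of 28.5 ± 4.0 and 26.0 ± 1.76 CPM.

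BCL2L11 encodes BIM, a BH3-only protein whose transcription is known to be raised by FOXO factors and held down by growth factor signaling. It had the largest fold change of the 7 genes. Its level was 5.62, 6.11 and 6.44 CPM in GM samples 1, 2 and 3 and 4.06, 2.95 and 2.62 CPM in DM samples, from 97 to 254 counts. Every DM sample lay below every GM sample, with DM replicate 1 the nearest. BCL2L11 was 1.89-fold higher in GM samples (means 6.05 ± 0.41 and 3.21 ± 0.75 CPM), with a log2 fold change of -0.92 (SE 0.19, 95% interval -1.34 to -0.50, edgeR adjusted p = 0.00157). That interval holds values on both sides of -1, and over the alternative settings the log2 fold change ran from -1.11 without DM replicate 1 to -0.78 without DM replicate 3.

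**Figure D2:**
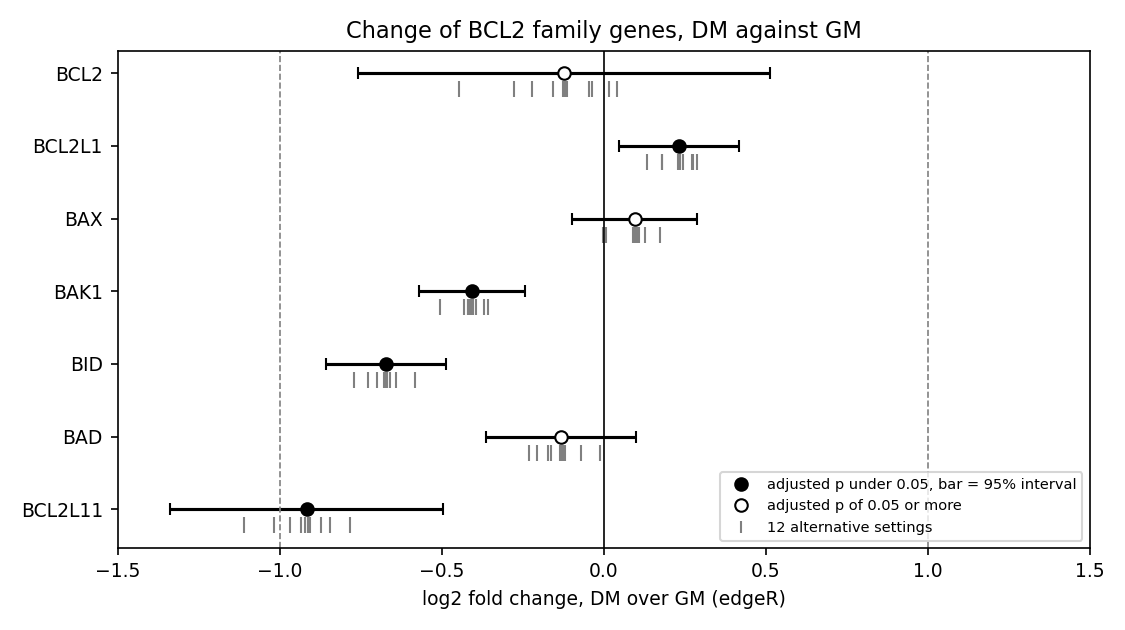
Log2 fold change of each BCL2 family gene, DM over GM, from edgeR (circles, filled at an adjusted p under 0.05) with its 95% interval (bars); grey ticks are the values under the 12 alternative settings and dashed lines mark log2 fold changes of -1 and 1. BAK1, BID and BCL2L11 lie below 0 under every setting, BCL2L1 lies above 0 under every setting with a call that was lost in 4 of them, and BCL2 and BAX have ticks on both sides of 0.

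By role, 1 of 2 survival genes rose, 1 of 2 effector genes fell, and 2 of 3 BH3-only genes fell, beside 31.6% of all tested genes that rose and 31.4% that fell, too few genes per role to read as a result about the roles. GM and DM samples did not overlap for 4 of the 7 genes, beside 68.8% of all tested genes. When the change had to exceed 1.2-fold (glmTreat in edgeR), BAK1, BID and BCL2L11 passed at an adjusted p under 0.05, 3 of 7 genes beside 49.1% of tested genes.

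The deposited mRNA table lists 9 transcripts of the 7 genes, counted from the same reads and so no separate evidence. Of these, 6 were called, 1 higher and 5 lower in DM samples, beside 64.6% of tested mRNAs. BID had 3 transcripts, which fell by 0.71, 0.69 and 0.64 on the log2 scale. Their summed counts were 2.01 to 2.07 times the BID gene count, so reads were shared between them and the transcripts cannot be read as separate isoforms. The other 6 genes had 1 transcript each, with the same counts as the gene.

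The positions of the genes are those listed with cattle Ensembl identifiers in the deposited table, which names no genome build. BCL2 (ENSBTAG00000019302) lies on chromosome 24 from 61914152 to 62105526, BCL2L1 (ENSBTAG00000006526) on chromosome 13 from 61766806 to 61817383, and BCL2L11 (ENSBTAG00000024105) on chromosome 11 from 1156954 to 1199792, all on the minus strand. BAK1 (ENSBTAG00000000428) lies on chromosome 23 from 7655892 to 7658885, BID (ENSBTAG00000013988) on chromosome 5 from 109639251 to 109656755 and BAD (ENSBTAG00000012511) on chromosome 29 from 43190201 to 43201983, also on the minus strand. BAX (ENSBTAG00000013340) lies on the plus strand of chromosome 18 from 55985202 to 55989378. No interval of these genes overlapped another listed gene. The gene models run from 636 bases for BAK1 to 2544 bases for BCL2L1, and 4 of the 7 lengths are multiples of 3, as are 50.5% of those of all protein-coding genes. The BCL2 model has 792 bases in an interval of 191375 bases. A model that lacks untranslated regions collects fewer reads and is divided by a shorter length, which limits how levels compare between genes.

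To compare the genes with each other, the deposited RPKM values, which divide counts by gene model length and by the sample's summed counts, were used. BAX was the highest in every sample, at 75.6 ± 8.73 RPKM in GM and 75.5 ± 0.533 RPKM in DM samples (mean ± SD, n = 3 each). BAK1 came next in every sample, at 53.7 ± 2.25 and 37.9 ± 1.14 RPKM. The effectors therefore held the top of the order per length in both states, and the distance between them was 1.41-fold in GM and 1.99-fold in DM samples. The place of BAK1 turned on the model lengths. By mean CPM, not divided by length, BCL2L1 (33.4 in GM and 39.2 in DM samples) and BID (45.9 and 28.8) stood above BAK1 (33.0 and 24.9).

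The BH3-only genes BID and BAD exchanged places. BID stood above BAD in all GM samples (38.8 ± 1.43 RPKM, against 31.4 ± 4.35 RPKM for BAD) and below BAD in all DM samples (22.7 ± 2.0 RPKM, against 26.8 ± 1.69 RPKM). These neighbours were close, with the lowest BID value at 37.4 and the highest BAD value at 36.4 RPKM in GM samples, and the lowest BAD value at 24.9 and the highest BID value at 24.7 RPKM in DM samples.

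The survival genes were lower per length. BCL2L1 stood below BID and BAD in every sample, at 13.6 ± 0.990 RPKM in GM and 14.9 ± 1.14 RPKM in DM samples. BCL2L11 followed at 7.11 ± 0.473 and 3.51 ± 0.766 RPKM, and BCL2 was last at 2.84 ± 0.553 and 2.44 ± 0.872 RPKM, except in DM replicate 3. There BCL2 (3.44 RPKM) stood above BCL2L11 (2.88 RPKM), and these neighbours overlapped over the DM samples. All other neighbours in the order were apart in both groups. Summed over the 7 genes, RPKM was 208 to 241 in GM and 180 to 187 in DM samples, and their counts made up 0.0197 to 0.0227% and 0.0173 to 0.0182% of all counts on genes.

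**Figure D3:**
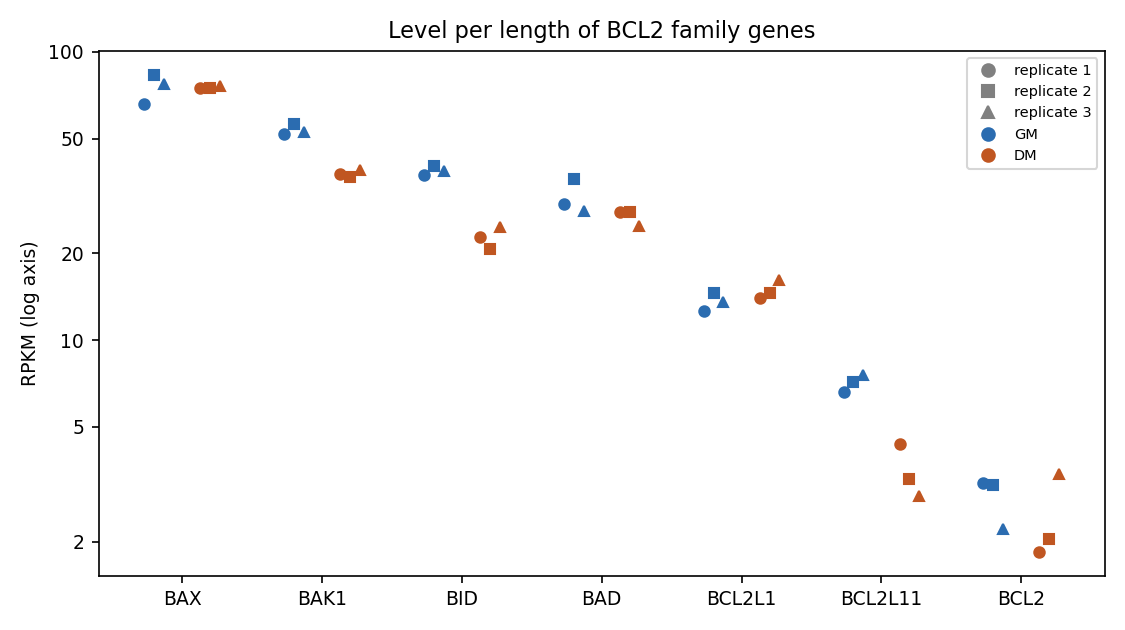
Deposited RPKM of the 7 BCL2 family genes in each sample (log axis), ordered by their mean in GM samples, with GM in blue, DM in orange and marker shapes for replicates 1 to 3. BAX and BAK1 are the highest in all samples, BID lies above BAD in GM samples and below it in DM samples, and BCL2 in DM replicate 3 lies above BCL2L11.

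Ratios within a sample do not depend on library scaling, and are given as a description without a test. The ratio of BAX to BCL2, often used as an index of the balance between death and survival, was 20.8, 26.6 and 35.0 in GM samples 1, 2 and 3 and 40.8, 37.0 and 22.1 in DM samples. The groups overlapped, and the lowest DM value was that of DM replicate 3, the sample with the most BCL2. The ratio of BAX to BCL2L1 was 5.26, 5.73 and 5.69 in GM samples and 5.38, 5.17 and 4.71 in DM samples, again with overlap.

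The survival genes BCL2 and BCL2L1 were also summed and divided by the sum of the effectors BAX and BAK1. This ratio was 0.133, 0.127 and 0.121 in GM samples 1, 2 and 3 and 0.140, 0.148 and 0.170 in DM samples. Here the groups did not overlap, with means of 0.127 ± 0.00609 and 0.153 ± 0.0157 (SD, n = 3 each). BCL2L1 made up most of the numerator, and BAK1 was the effector that fell. The ratio leaves out the survival gene BCL2L2 (mean 45.2 CPM in GM and 47.4 CPM in DM samples). It also leaves out the effector relative BOK (20.3 and 25.2 CPM) and MCL1, which was not listed by symbol. Those CPM values are not divided by length, unlike the RPKM in the ratio, and a ratio with these genes was not computed. The share of BAX in the summed RPKM of the 7 genes was 31.9 to 35.1% in GM and 40.7 to 41.7% in DM samples, while its own RPKM overlapped between groups.

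**Figure D4:**
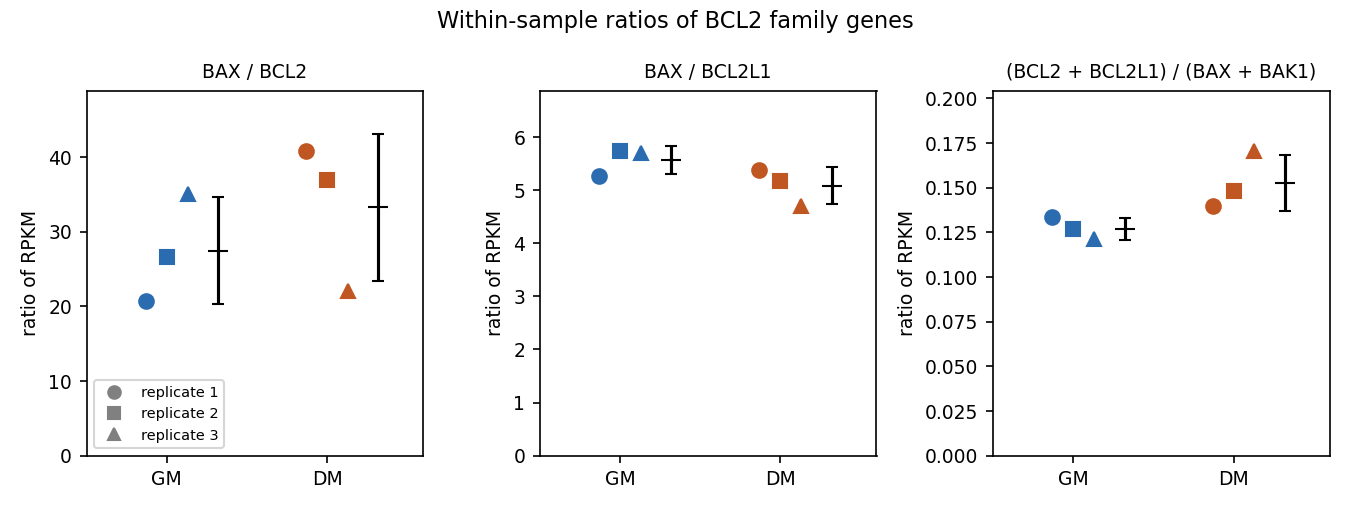
Ratios of RPKM within each sample for BAX over BCL2, BAX over BCL2L1, and the sum of BCL2 and BCL2L1 over the sum of BAX and BAK1, with GM in blue, DM in orange, marker shapes for replicates 1 to 3 and black bars for the mean ± SD (n = 3 per group). Only the last of these ratios separates the groups, at 0.121 to 0.133 in GM and 0.140 to 0.170 in DM samples. BCL2L2, BOK and MCL1 are not part of its sums.

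For the called genes with the largest fold changes, the genes of at least 10 CPM with the most similar profile over the 6 samples were looked up among 8059 candidates, by Pearson's r of log2 CPM. For BCL2L11 these were SLC35E1 (0.998), GNB1 (0.996) and USP37 (0.996), with 328 candidates above 0.95. For BID they were FAM50A, TRMT2A and NDUFA10 (0.999 each), with 1677 candidates above 0.95. These values describe 6 samples in 2 groups, in which any gene with a similar group difference scores high.

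Around the family, 44 of 54 symbols in 8 lists of apoptosis genes were listed and 43 were tested. Of these, 29 were called (67.4%, beside 63% of all tested genes), 17 higher and 12 lower in DM samples, beside 31.6% and 31.4% of all tested genes. The fold threshold was also passed by 13 of the 43, beside 25.3% of all tested genes. The median log2 fold change over the 43 genes was 0.14.

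Among the other survival, effector and BH3-only genes, 1 of 4 tested was called, beside 63% of all tested genes. The called gene was BMF, which encodes a BH3-only protein that binds survival proteins after loss of attachment. Its level was 0.868, 0.505 and 1.0 CPM in GM samples 1, 2 and 3 and 5.83, 5.41 and 4.68 CPM in DM samples. BMF thus rose 6.70-fold (log2 fold change 2.74, SE 0.26, edgeR adjusted p = 5.27e-06), opposite in sign to BCL2L11 and BID. BOK, an effector relative, had a log2 fold change of 0.32 (adjusted p = 0.0507), and the survival gene BCL2L2 had one of 0.07 (95% interval -0.08 to 0.21, adjusted p = 0.387). HRK had at most 4 counts in a sample.

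In the list of BCL2-like and BNIP genes, 4 of 5 were called, 3 higher and 1 lower, beside 63% of all tested genes (31.6% higher, 31.4% lower). BNIP3, a mitochondrial protein of hypoxia and mitophagy, fell from 76.2 ± 1.57 to 23.8 ± 8.54 CPM (log2 fold change -1.68, edgeR adjusted p = 3.04e-05). Its paralog BNIP3L, at 83.0 ± 6.19 CPM in GM and 181 ± 15.2 CPM in DM samples, rose by 1.13 on the log2 scale. BCL2L14 rose by 1.27 on the log2 scale, on 7 to 37 counts per sample (edgeR adjusted p = 0.0327), a call that was lost with DESeq2 and without GM replicate 1, GM replicate 3 or DM replicate 2. BCL2L15 had 0, 1 and 0 counts in GM samples and 15, 13 and 6 in DM samples, too few for a usable fold.

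The mitochondrial gate and apoptosome list had 10 of 12 genes called, 5 in each direction, beside 63% of all tested genes. The largest change was in DFFB, the nuclease that cuts DNA in dying cells, which fell by 1.05 on the log2 scale (edgeR adjusted p = 0.000123). The channel genes VDAC1 and VDAC2 fell, with log2 fold changes of -0.76 and -0.88, as did the serine protease gene HTRA2 (-0.78). In contrast APAF1, the scaffold of the apoptosome, rose by 0.83 and its partner CASP9 by 0.57. Among inhibitors of apoptosis proteins, 1 of 4 rose and 2 fell, beside 31.6% and 31.4% of all tested genes. BIRC5, which encodes survivin and also serves cell division, fell from 117 ± 4.96 to 18.5 ± 2.86 CPM (log2 fold change -2.65, edgeR adjusted p = 1.20e-08), while BIRC3 rose by 0.97.

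In the death receptor list, 3 of 8 tested genes rose and 1 fell, so 50% were called, beside 63% of all tested genes. CASP8, the caspase that cleaves BID, rose from 3.20 ± 0.20 to 13.1 ± 2.10 CPM (log2 fold change 2.03, edgeR adjusted p = 9.31e-07), so it moved opposite to BID. CFLAR, the inhibitor of caspase-8, rose by 0.50, and the adaptor FADD fell by 0.51. Of the genes that regulate BH3-only transcription, 4 of 7 rose and 2 fell, so 85.7% were called, beside the same 63%. FOXO3 rose from 10.8 ± 1.13 to 33.7 ± 3.57 CPM (log2 fold change 1.64, edgeR adjusted p = 3.54e-07), while BCL2L11 fell. E2F1 fell from 32.6 ± 2.55 to 7.12 ± 1.61 CPM (log2 fold change -2.19, edgeR adjusted p = 3.42e-07), as did BCL2L11 and the proliferation markers. The part of these regulators in the BCL2L11 change was not tested. TP73 had 18, 13 and 24 counts in GM samples and 2, 3 and 0 in DM samples, and its interval overlaps a gene on the other strand. FOXO1 and DDIT3 rose by 1.15 and 1.31. The list for MCL1 turnover had 1 of 3 genes called, beside 63% of all tested genes. It was the ubiquitin ligase gene HUWE1, which fell by 0.28.

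**Figure D5:**
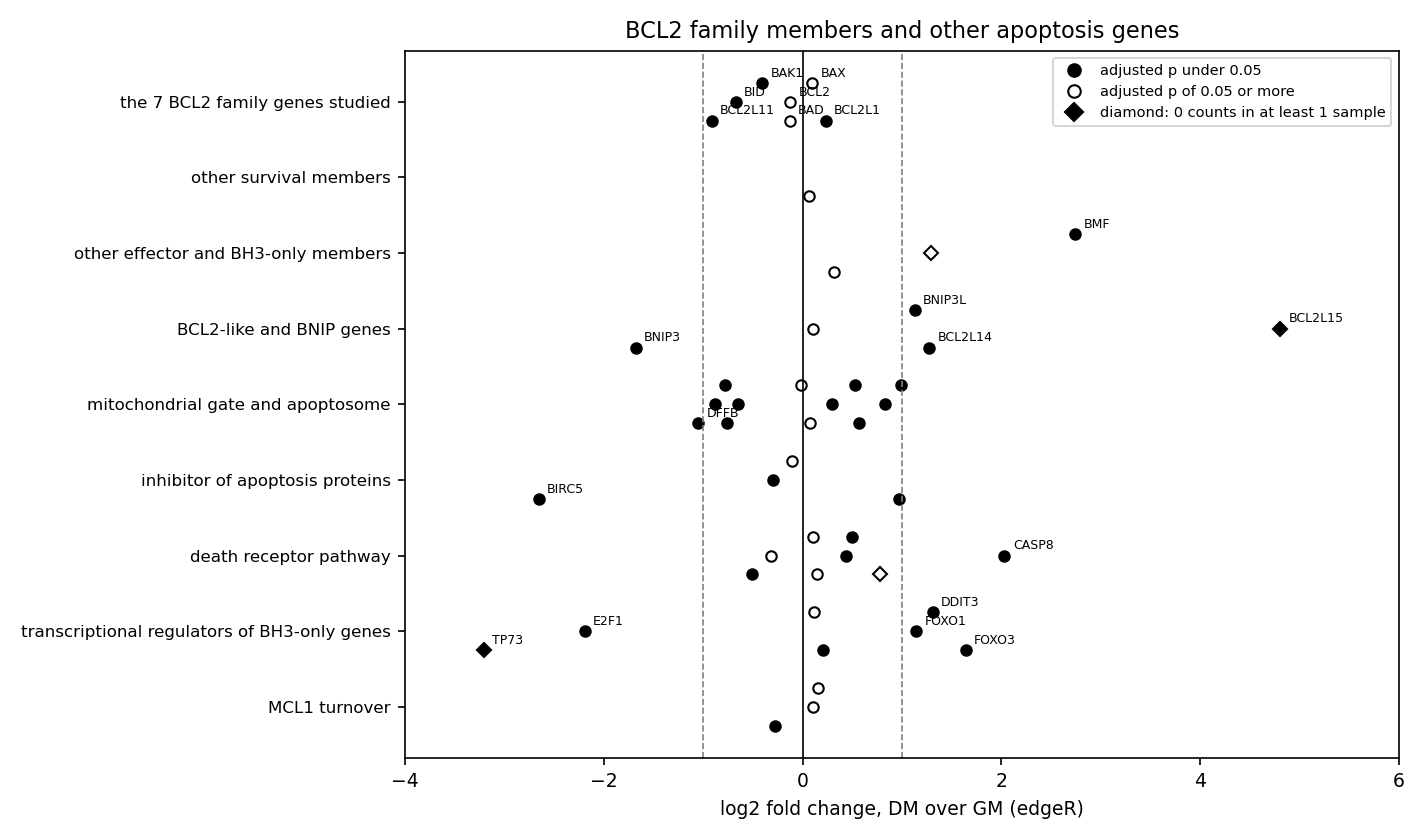
Log2 fold change, DM over GM, of the 7 BCL2 family genes and of 43 other apoptosis genes by list, from edgeR; filled symbols have an adjusted p under 0.05, diamonds mark genes with 0 counts in at least 1 sample, whose fold depends on the small number added to counts, and dashed lines mark -1 and 1. The 7 genes lie between -0.92 and 0.23, while BMF, CASP8 and FOXO3 lie above 1 and BIRC5, E2F1 and BNIP3 below -1.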

How the data were processed

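PolyA RNA-seq was analysed for 3 GM and 3 DM samples of buffalo MuSCs, grouped by their labels. The authors deposited raw counts per gene and per mRNA transcript, with reads aligned by HISAT2 according to the study's methods; the counting program is not given in the sources used here. The methods name the buffalo genome, the table holds cattle Ensembl identifiers without a build, and the submitters' processing notes list Bowtie 0.12.2, mm8 and mm9. The deposited RPKM values were derived by the authors from the counts, the gene model length and each sample's summed counts. The authors' fold changes, p-values and q-values, and the ncRNA table (0 transcripts of these genes), were not used. No sample column was left unmapped.

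Counts on genes were 35615864 to 40305237 per sample. TMM factors were 1.03 to 1.04 in GM and 0.948 to 0.983 in DM samples. Genes with at least 10 counts in total entered edgeR 4.0.16 under R 4.3.3 (glmQLFit, glmQLFTest), with standard errors and 95% intervals taken from the F statistic. The procedure was tested on simulated data. Alternatives were DESeq2 1.42.0, library size alone, DESeq2 size factors, other low-count filters (1 count, filterByExpr), a replicate block, each sample left out in turn, glmTreat, and for levels CPM per kilobase. Python 3.11.15, pandas 2.3.3, numpy 2.4.6 and matplotlib 3.10.9 served for levels and plots.

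The family genes and the gene lists were chosen with earlier results of these data known. Named genes were the family genes, up to 3 called genes past the fold threshold with the largest change in each other list, and the 3 genes most like each of the 2 called family genes with the largest change. The other named genes of the apoptosis lists were chosen after their values were seen. Some genes of these lists are counted but not reported here by name.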

Additional observations from a re-analysis of the deposited data

How the results depend on the processing

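The number of family genes called by adjusted p stayed at 3 or 4 in all 12 alternative settings, and BAK1, BID and BCL2L11 were called lower in DM samples in each. The number that also passed the fold threshold, 0 as reported, was 1 with library size alone and 0 to 1 with a sample left out, in each case BCL2L11 when it was 1, and 3 when the test was against a fold change of 1.2 (glmTreat). BCL2L1 lost its call with library size alone (log2 fold change 0.14) and ranged from 0.18 to 0.29 with a sample left out. BCL2 ranged from -0.45 to 0.041 with a sample left out, being 0.02 without DM replicate 2 and 0.041 without DM replicate 1. BAX was at -0.0022 with library size alone, a scaling that moved the median of all genes from 0.03 to -0.07. Mean RPKM of DM samples moved to 78.1 for BAX and 39.2 for BAK1 when CPM per kilobase replaced it. That measure also divides by the TMM factors, 0.948 to 0.983 in DM samples, so the DM mean of every family gene was higher by it. Only for BAX and BAK1 did this shift exceed the SD of the DM samples (0.533 and 1.14 RPKM). The causes of the other shifts were not tested. With the replicate block 4 family genes were called, and same-numbered samples did not deviate together (r = -0.02 to -0.01 over genes), so the numbers were not taken as pairs. For BCL2, with 52 to 104 counts per sample, depth and the DM spread limit what change could be seen.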
